A study of Polypedilum vanderplanki with 72 samples.

Results

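The genes described here are 162 genes of Pv11 cells that were higher in HSF1 knockout cells than in wild-type cells after heat shock. Their levels after trehalose were similar in both, and in wild type the level after heat shock was under 2-fold that after trehalose. The genes were chosen by their levels in the 12 knockout and wild-type libraries taken after heat shock and after trehalose. The choice was made out of 17156 genes in the deposited counts. Levels are CPM, the usual scaling of a count to the total of its library. The count of a gene is that of 1 transcript, the one with the highest total, and the library total sums these counts. With the transcripts of each gene summed instead, 68 genes met the rule below, 48 of them among the 162. The choice asked for 4 things, with 0.5 CPM added to each mean. The mean was 5 CPM or more in knockout cells after heat shock. The ratio of knockout over wild type was 1.8 or more after heat shock and from 0.67 to 1.5 after trehalose, and the ratio of heat shock over trehalose in wild type was under 2. Of 5073 genes that met the other criteria, 162 also had the ratio of 1.8.

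Pv11 is a cultured cell line of the sleeping chironomid Polypedilum vanderplanki, and its polyA RNA was sequenced in 72 libraries, 3 in each of 24 groups. Pv11 cells without HSF1 (KO) carry the knockout alone, and WT cells are wild-type Pv11. A further 7 clonal lines are HSF1 knockouts too and overexpress 1 form of HSF1 each. The forms are the isoforms V1, V2, V3, V4 and V5-6 of the midge's own HSF1, and Drosophila HSF1a (Dma) and HSF1b (Dmb). All 9 genotypes were measured after 6 h of heat shock (HS6h) and after 48 h in 600 mM trehalose at 25 °C (T48). The lines V1 to V5-6 and WT were also sampled in a further condition (R24), in which 48 h in trehalose and 11 days of desiccation preceded 24 h of rehydration. Each form is represented by 1 line, so the form and the clone cannot be told apart, and the promoter that drives the forms is not given in the labels. The labels do not give the temperature of the heat shock or say whether those cells had trehalose, and no group is untreated, so heat and the absence of trehalose cannot be told apart in HS6h against T48.

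HSF1, heat shock factor 1, binds heat shock elements in DNA and switches on chaperone genes when proteins unfold. During heat shock transcription of many other genes falls, in part with no need for HSF1, and HSF1 is known in other species to occupy genes that do not encode chaperones. The midge's larvae survive almost complete drying, and Pv11 cells survive drying after exposure to trehalose, a sugar that protects dried cells and proteins.

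Gene counts per library ran from 3043636 to 8808472. The deposited counts pair no ID with a name, and 0 IDs matched a locus of the reference table used here, so no function can be given for any of the 162 genes. The level of HSF1 could not be read either, and the KO labels were not checked against it. The labels do not say whether the 3 libraries of a group came from separate cultures, so p-values rest on the spread among these libraries alone, which may be technical. RNA was taken from whole cultures, in which fewer cells that express a gene and less RNA per cell cannot be told apart.

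The 162 genes covered more than 2 orders of magnitude in level. Mean levels in KO cells after heat shock ran from 5.09 to 1533 CPM with a median of 22.9 CPM, and 38 genes had under 10 CPM there, 93 had 10 to 100 CPM and 31 had 100 CPM or more. In WT cells after heat shock the means ran from 1.42 to 728 CPM with a median of 11.5 CPM. At T48 the medians were close to each other, 22.2 CPM in KO cells and 21.4 CPM in WT cells. The ratio of KO over WT at HS6h ran from 1.802 to 3.63 with a median of 2.02, and it was 2 or more for 83 genes and 3 or more for 7. For 160 of the 162 genes all 3 KO libraries lay above all 3 WT libraries at HS6h, a pattern shown by 28.6% of 9231 genes with enough counts for a test. The genes were selected on this difference, so the count describes the choice and nothing is read from it. Just inside the threshold, g11694 had a ratio of 1.802 (19.0 CPM in KO, 10.3 CPM in WT) and g7054 one of 1.802 (11.2 CPM in KO, 5.99 CPM in WT). Just outside it, g1794 had 1.798 (20.0 CPM in KO, 10.9 CPM in WT) and g1450 had 1.798 (17.0 CPM in KO, 9.21 CPM in WT).

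The choice sets the ratio of HS6h over T48 of each gene higher in KO than in WT, since it asks for a higher KO over WT ratio at HS6h than at T48. The counts in this paragraph describe that choice, and nothing is read from the gap between KO and WT. In KO the ratio of HS6h over T48 had a median of 1.196 and was under 0.67 for 30 genes, from 0.67 to 1.5 for 74 and above 1.5 for 58, and for 38 genes it was 2 or more. In WT the same ratio was under 0.67 for 93 genes, called WT-lower below, from 0.67 to 1.5 for 60 genes (WT-flat) and above 1.5 for 9 genes (WT-higher), with a median of 0.607. Of the 93 WT-lower genes, 30 were also below 0.67 in KO, 56 stood between 0.67 and 1.5 and 7 stood above 1.5. Of the 60 WT-flat genes, 18 stood between 0.67 and 1.5 in KO and 42 above 1.5, a shift that the choice fixes in direction. These ratios are on library totals, on which the median of all genes of 1 CPM or more was itself -0.26 on the log2 scale in KO and -0.44 in WT. TMM, a scaling factor computed from the bulk of the genes, puts that median near 0, at -0.01 in KO and -0.01 in WT. With totals adjusted by TMM, the median WT ratio of the 162 genes was 0.826, and 27 genes had a WT ratio above 1.5. For 9 genes it was 2 or more, up to 2.57, so their WT ratio was under 2 on library totals only. The ratio of KO over WT at HS6h then ran from 1.64 to 3.35 with a median of 1.84, and it was 1.8 or more for 88 genes.

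The 4 genes with the highest level in heat-shocked KO cells were g10988, g14105, g3681 and g4502. After heat shock g10988 had 1448, 1512 and 1639.9 CPM in the KO libraries, against 661, 698 and 826 CPM in the WT libraries. In the 7 lines its libraries lay between 462 CPM (a Dma library) and 939 CPM (a V5-6 library), so none of the 21 line libraries reached the KO range. Heat-shocked KO cells had 1287, 1295 and 1496 CPM of g14105, and WT cells had 555, 629.6 and 771 CPM. For this gene V1 stayed close to KO, with 1085, 1191 and 1107 CPM, while the Dmb libraries had 322, 391 and 346 CPM and lay below WT. For g3681 the KO libraries had 1016, 1099.8 and 1051 CPM, against 499, 511 and 492 CPM in WT. Its levels in V2 were 874, 904 and 937 CPM, nearer to KO, and in V4 they were 549, 559 and 526 CPM, nearer to WT. For g4502 the KO libraries had 660.1, 649.9 and 627 CPM and the WT libraries 359, 359 and 346 CPM. Its line libraries ran from 331 CPM (Dmb), below every WT library, to 613 CPM (V2), just under KO.

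The 4 genes with the largest KO over WT ratio were of low level. After heat shock g6511 had 15.2, 22.6 and 24.5 CPM in KO, against 5.27, 5.14 and 5.66 CPM in WT, a ratio of 3.63. For g4505 the KO libraries had 24.6, 25.4 and 28.2 CPM and the WT libraries 6.29, 6.67 and 7.64 CPM, a ratio of 3.61. In V5-6 it was at the KO level, with 28.4, 22.6 and 22.6 CPM. The libraries of KO had 12.8, 14.3 and 11.7 CPM of g5056, against 3.07, 3.19 and 3.54 CPM in WT, a ratio of 3.56. For g3614 KO had 19.3, 21.0 and 19.8 CPM and WT had 7.46, 5.14 and 5.66 CPM, a ratio of 3.12. This gene was highest in V1, where 43.1, 46.9 and 45.4 CPM lay above every KO library, and low in V3 at 7.20, 7.29 and 9.64 CPM.

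Some of the 162 IDs are neighbours in the numbering of the gene models, so they may not all be separate genes. There were 12 pairs with consecutive numbers, which involved 21 genes, and the longest run was 3. The IDs g4573 and g4574 had counts within 10% of each other in 71 of the 72 libraries, with equal counts in 14 libraries. Their level across the 72 libraries had a Pearson correlation of 1.00 on the log2 scale. For g11310 and g11311 the counts were within 10% in 58 libraries, with a correlation of 0.993, and g9019 and g9020, whose levels differed, had one of 0.990. The correlations describe libraries that share treatments. How the reads of such neighbours were divided is not given in the sources used here, so each pair may stand for a gene or locus counted under separate IDs. The gene g6511 lies in a run with g6510 and g6512, with correlations of 0.967 and 0.915.

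How the forms of HSF1 compared with the knockout was asked by placing the 7 lines beside KO and WT after heat shock. In all 7 lines the 162 genes lay below KO in the median, most in the Drosophila lines and, on library totals, least in V5-6 and V2. The median log2 difference of line over KO was -1.27 ± 0.02 in Dmb and -1.08 ± 0.13 in Dma (SD over 3 libraries). Among the midge isoforms it was -0.94 ± 0.04 in V3, -0.84 ± 0.04 in V4, -0.77 ± 0.09 in V1, -0.65 ± 0.04 in V2 and -0.63 ± 0.03 in V5-6. In edgeR's fit of all 72 libraries with TMM it was -0.50 in V2, -0.62 in V1 and -0.64 in V5-6. The place of V5-6 in this order therefore depended on the scale. The same median over all genes of 1 CPM or more lay between -0.18 (V1) and 0.04 (V4). The number of the 162 genes below KO was 149 in V2, 155 in V1, 156 in Dma, 156 in Dmb, 157 in V4, 158 in V5-6 and 160 in V3, and 132 genes were below KO in all 7 lines. These are descriptions with no test. The genes were chosen as high in the KO libraries and low in the WT libraries, so another group would lie below KO and above WT in part through that choice.

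**Figure D1:**
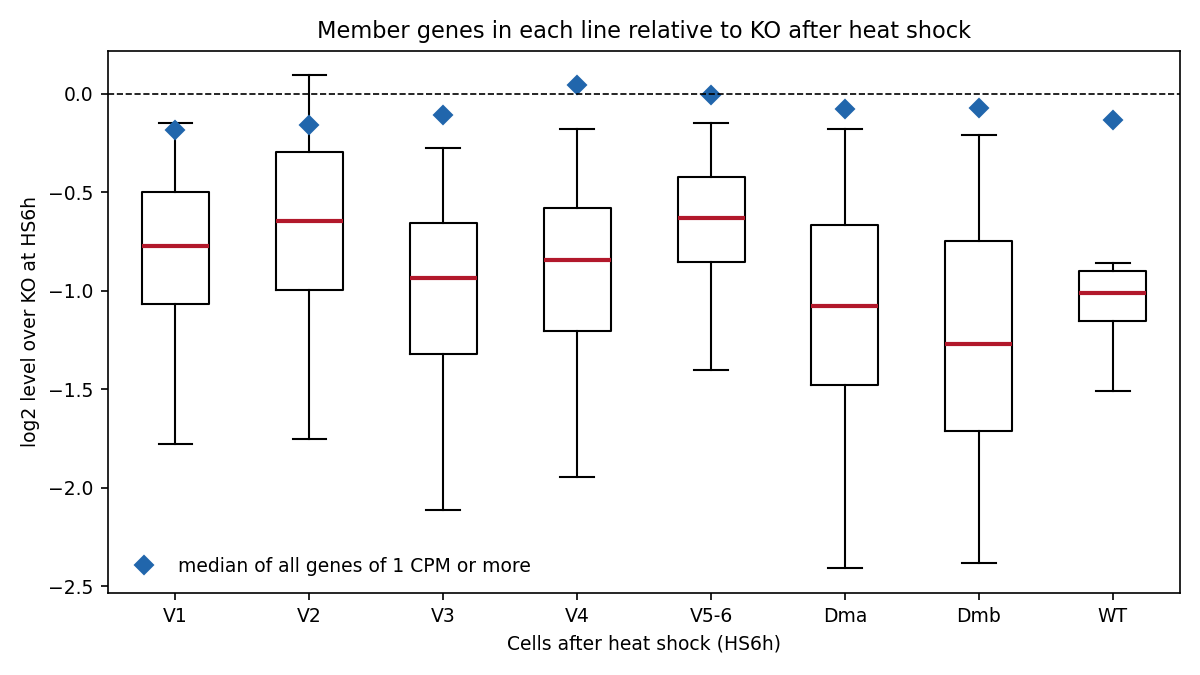
Levels of the 162 genes after heat shock as log2 of (mean CPM + 0.5) over KO, in the 7 lines and WT on the x axis: boxes give the quartiles with the median in red, whiskers the 5th and 95th percentiles of genes, and blue diamonds the median of all genes of 1 CPM or more. The red medians of the 7 lines lie between -1.27 (Dmb) and -0.63 (V5-6), below the diamonds.

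The lines also differed in how far they lay from WT. The median log2 difference of line over WT at HS6h was 0.43 ± 0.03 in V2, 0.37 ± 0.01 in V5-6, 0.25 ± 0.10 in V1, 0.19 ± 0.05 in V4, 0.13 ± 0.05 in V3, 0.01 ± 0.15 in Dma and -0.20 ± 0.03 in Dmb. The sign in V4 depended on the scale, since with TMM its median over WT was -0.00, and with TMM the medians of Dma and Dmb were -0.00 and -0.25. The median of Dma was -0.03 without its replicate 2, -0.07 without replicate 3 and 0.12 without replicate 1. On the log2 scale of library totals, 94 of the 162 genes were nearer to WT than to KO in V2, 104 in V5-6, 114 in V1, 134 in V3, 134 in V4, 138 in Dma and 138 in Dmb. With TMM these were 85 in V2, 100 in V1 and 110 in V5-6, so the order of V1 and V5-6 turned with the scale. The counts that follow are on library totals. No gene was nearer to KO in all 7 lines, and 46 were nearer to WT in all 7. Of the genes nearer to WT in V4, 56 were not so in V2, and 16 were nearer to WT in V2 and not in V4. Only 3 genes were below WT in all 7 lines. The KO and WT libraries that chose the genes also set these distances. Another group would therefore lie away from KO in part through that choice. The counts were not made over all genes, so they are descriptions with no test or background.

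The order of the lines for these genes was not that for heat-induced genes. A list of 52 heat-induced genes was taken from the same libraries, with a mean of 5 CPM or more in WT at HS6h, a WT ratio of HS6h over T48 of 2 or more, and a KO over WT ratio of 0.55 or less at HS6h. Over KO their median log2 difference was 0.00 ± 0 in V4 and 0.43 ± 0.08 in V5-6, while the other 5 lines lay between 1.96 ± 0.15 (Dma) and 2.82 ± 0.14 (V1). In V4 26 of the 52 genes were above KO and 22 below. The other 4 had 0 counts in V4 and in KO, so that the 0.5 CPM added sets their difference to 0, and the median and SD of 0 in V4 rest on such low counts. Both lists were chosen with the KO libraries, the 52 genes as low and the 162 as high in KO, so a line would lie above KO for the first and below it for the second in part through the choice. Among the 60 libraries that the choice did not use, the test of V4 against V1, V2 and V3 given below called 42 of the 52 heat-induced genes lower and 4 higher. That test, with TMM scaling, called 19.0% of all genes lower and 18.6% higher.

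**Figure D2:**
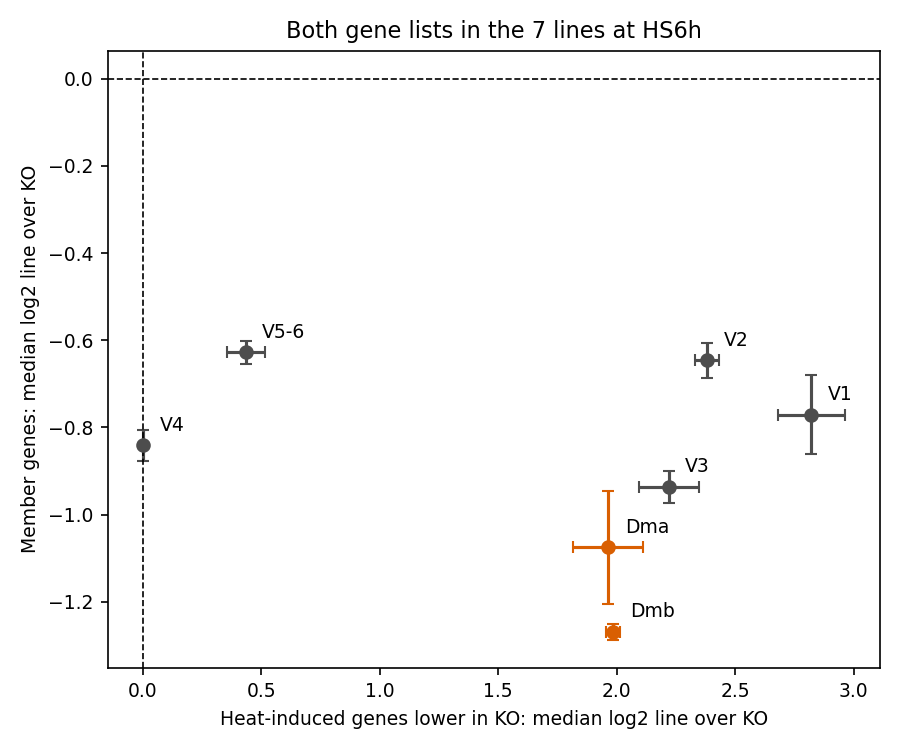
Each point is a line after heat shock, with the median log2 difference over KO of the heat-induced list of 52 genes on the x axis and of the 162 genes on the y axis; bars are the SD over 3 libraries, grey marks midge isoforms and orange Drosophila forms. V4, at 0.00 and -0.84, stands apart from V1, V2, V3, Dma and Dmb on the x axis but lies among them on the y axis.

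The response of these genes to heat was tested in the lines, which the choice did not use. The test was edgeR's quasi-likelihood test on 60 libraries with TMM scaling, with Benjamini-Hochberg adjusted p under 0.05 over 9180 genes as the threshold, and all 162 genes passed its filter on low counts. HS6h was compared with T48 in each line. With TMM more of the genes rose than fell in V2 and V5-6, a direction that turned on library totals, and more fell than rose in V3, V4, Dma and Dmb. In V1 52 rose and 52 fell, where 28.3% of all genes tested were called higher and 30.9% lower. In V2 63 rose and 52 fell (all genes 29.9% and 32.2%), and in V5-6 63 rose and 56 fell (all genes 31.1% and 30.4%). In V3 45 rose and 65 fell (all genes 30.3% and 31.6%), and in V4 44 rose and 69 fell (all genes 31.0% and 31.3%). The counts were 31 and 65 in Dma (all genes 28.1% and 27.9%) and 25 and 73 in Dmb (all genes 30.2% and 29.7%). Read against all genes, the share that rose was above the background in V2 and V5-6 (38.9% in each). It was near the background in V1, V3 (27.8%) and V4 (27.2%), and below it in Dma (19.1%) and Dmb (15.4%). In the list of 4422 genes unchanged in KO, defined below, 31.3% rose in V1, 34.5% in V2 and 37.4% in V5-6. The list had 36.2% in V3, 38.4% in V4, 33.2% in Dma and 35.0% in Dmb. Against this list the share of the 162 genes was near in V1 and V5-6, higher in V2 and lower in the other lines. The share that fell was above that of all genes in V3 (40.1%), V4 (42.6%), Dma (40.1%) and Dmb (45.1%).

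The median log2 change of the 162 genes was 0.15 in V2, 0.07 in V1, 0.02 in V5-6, -0.18 in Dma, -0.20 in V3, -0.31 in V4 and -0.37 in Dmb, beside medians of all genes tested between -0.06 and 0.03. These directions depend on the scaling. On library totals with no scaling factor, the median of all genes tested in HS6h over T48 was between -0.67 (V1) and -0.10 (Dmb). On that scale more of the genes fell than rose also in V2 and V5-6. There were 42 up and 74 down in V2 (all genes 17.8% and 47.3%). In V5-6 43 were up and 70 down (all genes 20.3% and 42.1%), so in both lines the share that rose stayed above that of all genes. In V1 26 rose and 90 fell (all genes 13.5% and 53.8%). The number that rose was 24 in V3 (all genes 16.4%), 25 in V4 (19.8%), 12 in Dma (18.7%) and 16 in Dmb (25.0%).

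The classes made from the WT response differed in the lines as well. Other genes were not split in this way, so whether this is particular to the 162 genes was not tested. Of the 93 WT-lower genes between 48 (V2) and 66 (V4) fell, and between 2 (Dmb) and 10 (V2) rose. Of the 60 WT-flat genes 46 rose in V5-6, 44 in V2, 40 in V1, 33 in V3, 31 in V4, 21 in Dma and 18 in Dmb, and between 1 and 10 fell. The WT-flat genes were flat on library totals, and their median in WT was 0.38 with TMM, the scale of the test. Of the 9 WT-higher genes between 5 (Dmb) and 9 rose and 0 fell in any line. Over the 7 lines 27 of the 162 genes fell in all (all genes 13.7%) and 8 rose in all (all genes 12.5%). A further 27 rose in some line and fell in another (all genes 12.0%), and 3 were called in none (all genes 7.37%).

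**Figure D3:**
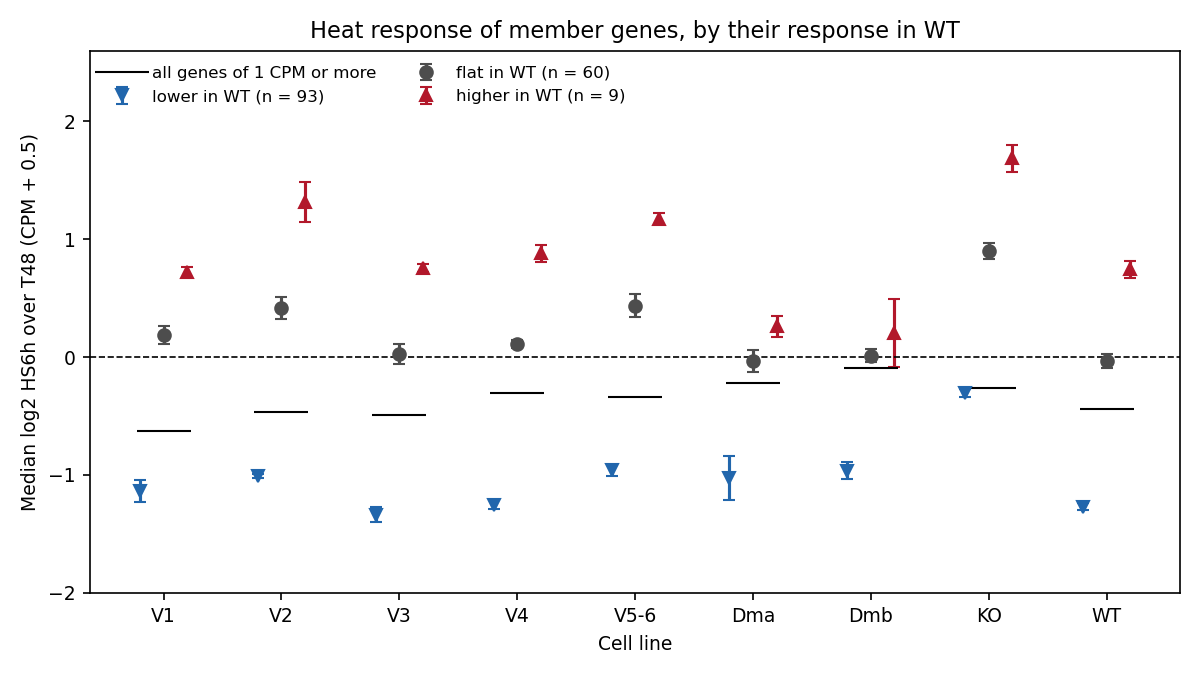
Median log2 of HS6h over T48 on CPM + 0.5 with library totals, for the genes grouped by their own response in WT (blue lower, grey flat, red higher), in each line, KO and WT; bars are the SD over 3 heat shock libraries and black dashes the median of all genes of 1 CPM or more. The flat class stands between -0.03 (Dma) and 0.44 (V5-6) in the lines; KO (0.90) and WT (-0.03) are shown as levels, since the genes were chosen on those libraries.

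By the rule for named genes, g13707 and g5366 rose in most lines and g12212 and g11018 fell in most. In V3 g13707 had 59.2, 67.0 and 67.0 CPM after heat shock, against 11.4, 13.9 and 7.56 CPM at T48, a log2 change of 3.00 (SE 0.16). In V1 it had 59.9, 70.2 and 65.8 CPM after heat shock, against 52.2, 48.7 and 68.0 CPM at T48, where it was already high. The change in V1 was 0.83 with TMM (SE 0.13, edgeR adjusted p 8.6e-08) and 0.22, no longer past the threshold, on library totals, where its libraries overlap. In the other 5 lines g13707 rose by 1.82 (Dma) to 3.14 (V2). After heat shock g12212 had 8.12, 8.85 and 8.50 CPM in V4, against 80.2, 86.3 and 84.3 CPM at T48. The groups were far apart, and the log2 changes ran from -2.95 in V4 to -1.96 in Dma (SE 0.18 to 0.20). For g11018 they ran from -2.98 in V3 to -1.95 in V1, and V3 had 4.80, 4.69 and 4.66 CPM after heat shock, against 46.9, 58.0 and 52.6 CPM at T48. The adjusted p of g12212 and g11018 was 2.8e-13 or less in each of the 7 lines.

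The gene g5366 was nearly silent in most lines at T48, and its folds rest on few counts. V1, V2 and V3 held 8, 10 and 24 counts of it over their 3 libraries at HS6h, and 0 counts in all 9 libraries at T48. Against a floor of 3 counts summed over the 3 libraries at T48, it was at least 2.05-fold higher after heat shock in V1, 2.61-fold in V2 and 5.84-fold in V3. In V4 it had 24.7, 24.3 and 22.5 CPM after heat shock, against 5.14, 5.39 and 8.48 CPM at T48, a log2 change of 2.26 (SE 0.38, edgeR adjusted p 6.6e-07). With g5366 at these bounds the medians over the 162 genes in V1, V2 and V3 were as given above, 0.07, 0.15 and -0.20. The rise in Dma, where T48 had 0, 1.15 and 0 CPM, did not hold without T48 replicate 1 or replicate 3.

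The lines were then compared with each other after heat shock in the same test, with the mean of V1, V2 and V3 as the common base of 3 of the comparisons, which therefore share those 9 libraries. In V4 the 162 genes were more often lower than higher. Against V1, V2 and V3 70 were lower and 11 higher, where 19.0% of all genes tested were lower and 18.6% higher. Their median was -0.32 and that of all genes 0.01. The list of 4422 genes with a KO over WT ratio from 0.67 to 1.5 at HS6h leaned to higher, with 17.4% lower and 23.3% higher. On library totals the counts in V4 became 45 lower and 25 higher, on a scale where the median of all genes moved to 0.21 and 1058 genes were called lower and 2987 higher.

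In V5-6 there were 15 genes lower and 27 higher than in V1, V2 and V3 (all genes 10.1% and 11.7%), with a median of 0.06. Without HS6h_V5-6 replicate 3 the lower count was 8. On library totals 8 were lower and 43 higher (all genes 6.83% and 22.4% on that scale). In the Drosophila lines 91 genes were lower and 27 higher than in V1, V2 and V3 (all genes 26.2% and 26.9%), with a median of -0.46, the lowest of the 4 comparisons. The WT-flat genes were mostly lower there, with 41 of 60 lower and 9 higher. Between the Drosophila forms, 43 genes were lower and 14 higher in Dmb than in Dma (all genes 11.8% and 9.61%), with a median of -0.19. The lower count fell to 28 without HS6h_Dma replicate 3, and the higher count to 8 or 9 without HS6h_Dma replicate 1 or 2 or HS6h_Dmb replicate 2 or 3.

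The genes that moved most were few and differed between comparisons. After heat shock g12149 had 20.5, 18.4 and 16.1 CPM in V4, against 101, 120 and 115 CPM in V1, 88.0, 85.9 and 95.4 CPM in V2 and 62.0, 61.8 and 64.2 CPM in V3. The V4 libraries lay below all others, and the log2 difference was -2.42 (SE 0.13, edgeR adjusted p 5e-26). At T48 this gene was already lower in V4, with 17.2, 18.5 and 18.1 CPM, against 34.3 to 60.6 CPM in V1, V2 and V3. After heat shock g12149 in V4 was also below WT, which had 40.1, 31.9 and 44.3 CPM. In the other direction g5366 was higher in V4, with a log2 difference of 4.70 (SE 0.33, edgeR adjusted p 3.7e-19) and a highest library of 2.03 CPM among V1, V2 and V3. In V5-6 g13386 had 5.94, 9.67 and 7.05 CPM, and the 9 libraries of V1, V2 and V3 lay between 1.17 and 5.78 CPM. The groups did not overlap, though narrowly, and the log2 difference was 1.56 (SE 0.34, edgeR adjusted p 0.00026). No gene met the rule for named genes in the lower direction in V5-6.

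Among the Drosophila comparisons g1575 stood out as higher. After heat shock it had 17.9, 19.9 and 24.5 CPM in Dma and 28.7, 38.0 and 31.1 CPM in Dmb, and at most 11.4 CPM in a library of V1, V2 or V3. The log2 difference was 3.05 (SE 0.18, edgeR adjusted p 1.2e-23), and at T48 it was 3.99 (SE 0.24). In contrast g3622 had 6.10, 12.2 and 11.2 CPM in Dma and 3.76, 10.1 and 9.62 CPM in Dmb, and V1, V2 and V3 had between 16.8 and 43.4 CPM. The log2 difference was -1.68 (SE 0.12, edgeR adjusted p 2.4e-19), and WT, at 19.0, 21.3 and 19.5 CPM, lay above both Drosophila lines. Between the Drosophila forms, g3018 had 2.63, 1.75 and 3.69 CPM in Dmb, against 10.4, 10.6 and 14.2 CPM in Dma (log2 -2.15, SE 0.27, edgeR adjusted p 1.1e-09). The highest rise was that of g5366, with 6.57, 3.11 and 5.94 CPM in Dmb, against 1.28, 1.58 and 1.41 CPM in Dma (log2 1.83, SE 0.47, edgeR adjusted p 0.0024).

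**Figure D4:**
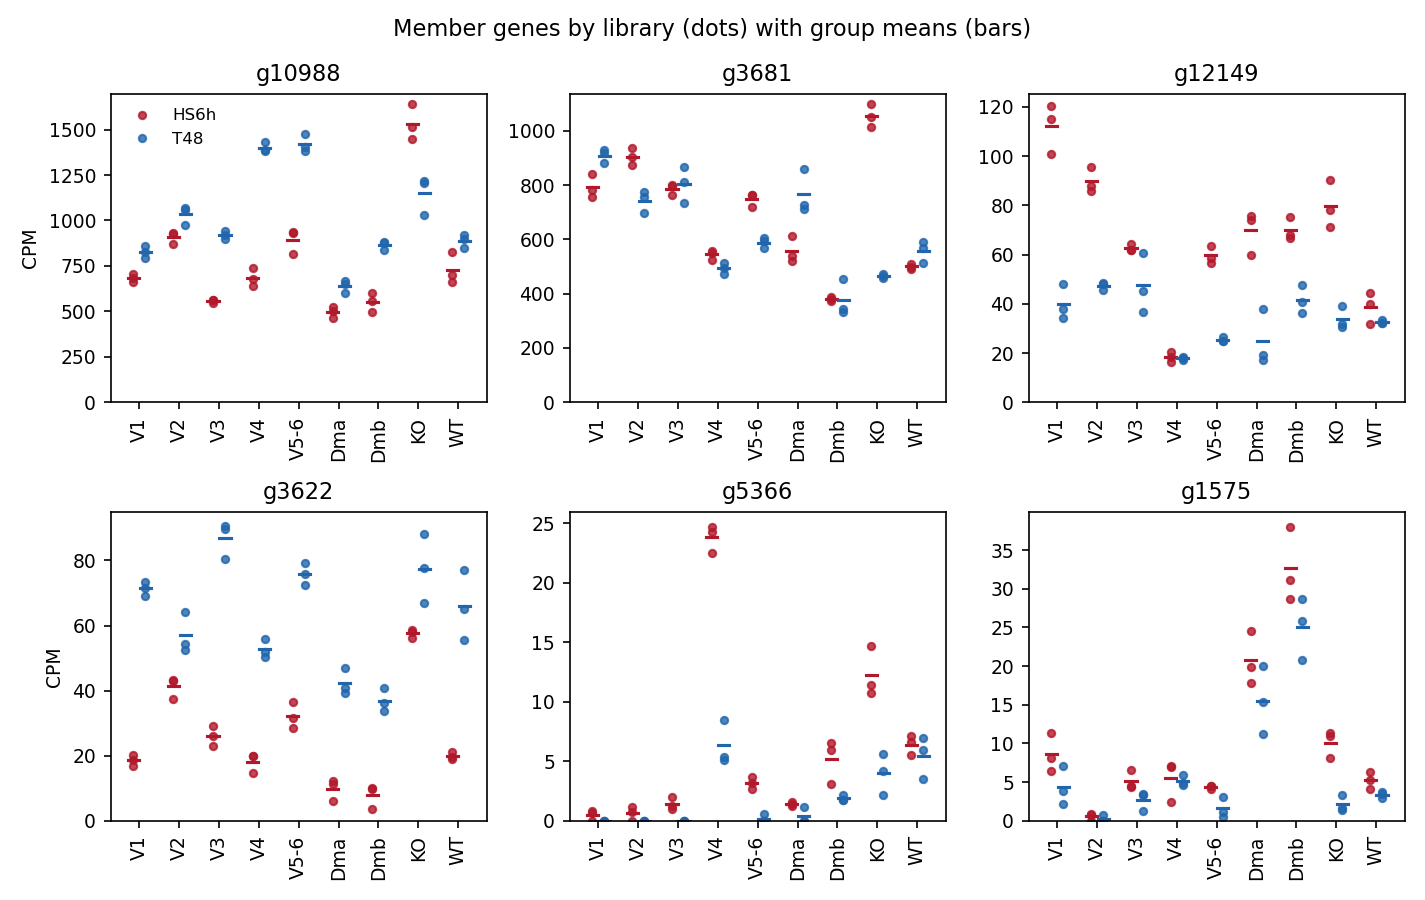
CPM of 6 of the genes in each library of the 9 genotypes, with HS6h in red and T48 in blue; dots are libraries, short bars the means of 3. The red dots of g12149 are lowest in V4 (16.1 to 20.5 CPM), and those of g10988 are highest in KO (1448 to 1639.9 CPM).

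Part of these differences was already present at T48, mainly in the Drosophila lines. At T48 V4 had 26 genes lower and 22 higher than V1, V2 and V3 (all genes 12.1% and 13.1%), and 22 were lower and 22 higher in V5-6 (all genes 8.12% and 8.79%). In the Drosophila lines 63 were lower and 32 higher (all genes 22.7% and 23.1%). On library totals these became 101 lower and 20 higher (all genes 44.9% and 11.9%), where the median of all genes was -0.30. Between the Drosophila forms 26 were lower and 17 higher in Dmb than in Dma (all genes 7.89% and 9.10%). The gene g3018, for example, had 3.93, 2.49 and 5.13 CPM in Dmb at T48, against 22.5, 17.0 and 19.1 CPM in Dma, so its groups did not overlap in either treatment.

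The difference between the heat responses was therefore tested directly, as HS6h over T48 in a line minus the same in the base lines. In V4 the response was lower for 47 genes and higher for 5 (all genes 11.4% and 9.49%), and the median difference was -0.30. For the Drosophila lines 71 genes had a lower response and 17 a higher one than V1, V2 and V3 (all genes 21.3% and 19.1%), with a median of -0.35. In V5-6 10 were lower and 16 higher (all genes 7.14% and 6.98%), and in Dmb against Dma 14 were lower and 2 higher (all genes 4.46% and 2.07%). The lower count of Dmb was 6 without T48_Dmb replicate 2, 7 without T48_Dma replicate 2 or HS6h_Dma replicate 3, and 8 without T48_Dma replicate 3 or HS6h_Dmb replicate 2, so it rested on single libraries. The higher count of Dmb was 1 without T48_Dma replicate 1 and 4 without T48_Dma replicate 3, T48_Dmb replicate 1 or HS6h_Dma replicate 3, and that of V4 was 2 without T48_V4 replicate 1 or 2 and 3 without any of 7 other libraries. The counts of V4 and of the Drosophila lines leaned less on library totals, where the medians of all genes were 0.14 and 0.33. In V4 30 were lower and 9 higher (all genes 6.37% and 17.4% on that scale). For the Drosophila lines 41 were lower and 40 higher (all genes 10.8% and 38.3%). In both, the share with a lower response stayed above that of all genes. For Dmb against Dma the direction turned on library totals, with 4 lower and 9 higher (all genes 2.30% and 5.61% on that scale), and in V5-6 4 were lower and 26 higher (all genes 3.86% and 13.6%). The mean scaling factor at HS6h was 0.892 in V4, the highest of the lines, and 0.755 in V1, the lowest, so the scale moves with these comparisons, and its part in them was not tested. Among the named genes, the response of g10988 was lower in V4 by -0.81 (SE 0.12, edgeR adjusted p 2.8e-07) and that of g12149 by -1.06 (SE 0.20, adjusted p 3.6e-05). For g14105 it was lower in the Drosophila lines by -1.34 (SE 0.13, adjusted p 5.1e-14). Its levels after heat shock were 383, 448 and 448 CPM in Dma, against 321, 372 and 415 CPM at T48, ranges that overlap.

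At R24 more of the genes were higher than lower against T48. The comparison of R24 with T48 in each line shares the T48 libraries with that of heat shock. In V4 82 genes rose and 38 fell (all genes 26.8% and 25.4%), in V5-6 81 rose and 37 fell (all genes 30.8% and 27.8%), and in V3 74 rose and 39 fell (all genes 31.7% and 29.0%). In V2 72 rose and 44 fell (all genes 31.6% and 29.6%), and in V1 70 rose and 37 fell (all genes 29.7% and 28.1%). Their median log2 change ran from 0.28 (V2) to 0.49 (V4), and that of all genes from 0.02 to 0.06. In the list of 4422 genes unchanged in KO between 25.6% (V4) and 35.8% (V3) rose. Of the 60 WT-flat genes between 37 (V1) and 46 (V5-6) rose, while of the 93 WT-lower genes between 24 and 33 rose and between 33 and 40 fell. In WT, whose T48 libraries served the choice, the median of R24 over T48 was 0.42 on library totals and 0.30 with TMM. On library totals, where the median of all genes in V4 was 0.36, the number that fell in V4 was 18 (all genes 14.9%).

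**Figure D5:**
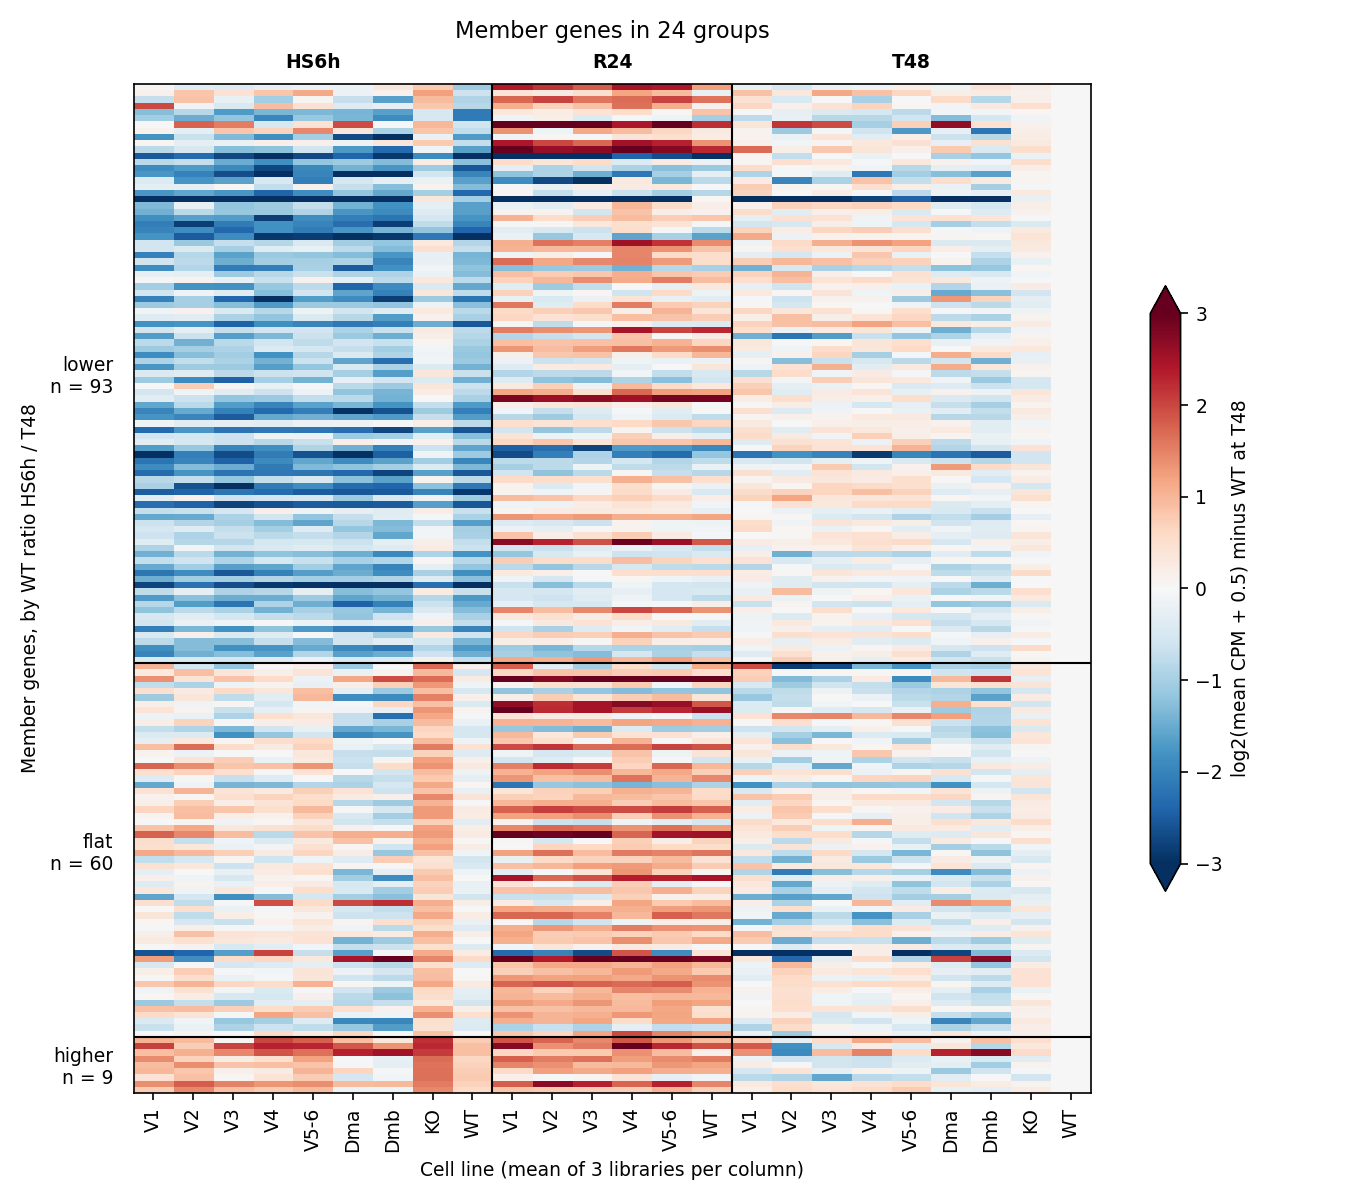
Mean level of each of the 162 genes (rows) in the 24 groups as log2(mean CPM + 0.5) minus WT at T48, with the genes split by their WT response to heat and ordered within a class by KO over WT at HS6h. Many WT-flat genes are above WT at T48 (red) at R24 in all 6 genotypes measured; the contrast of KO and WT at HS6h is what the genes were chosen on.

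Genes of the named set took different courses at R24. In V1 g6511 had 53.0, 79.9 and 57.9 CPM at R24, against 9.97, 12.7 and 7.31 CPM at T48, a log2 change of 2.59 (SE 0.24, edgeR adjusted p 1.7e-15). It rose by 2.02 to 2.59 in the 5 lines. The gene g1575 rose further, by 3.31 (V4) to 5.20 (V5-6) in 4 lines, and it also passed the threshold in V2, with 19.3, 16.5 and 22.7 CPM at R24, against 0.785, 0 and 0 CPM at T48. In V5-6 it had 71.2, 72.3 and 70.9 CPM, against 0.546, 1.19 and 3.07 CPM at T48. In the other direction g16280 fell in all 5 lines, by 0.67 (V3) to 2.01 (V4), and in V4 it had 70.2, 68.7 and 65.6 CPM at R24, against 212, 215 and 232 CPM at T48.

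Against WT at R24 the 162 genes leaned to neither side in the median. In V1, V3 and V5-6 both the share called higher and the share called lower were above those of all genes. In V2 the share called higher (14.2%) was below that of all genes, and in V4 the share called lower (16.7%) was near it. In the list of 4422 genes unchanged in KO, 16.9% were higher in V2 and 18.1% were lower in V4. The 5 comparisons share the 3 WT libraries. In V1 33 were higher and 24 lower (all genes 9.49% and 10.7%), in V3 33 were higher and 32 lower (all genes 14.5% and 14.0%), and in V4 36 were higher and 27 lower (all genes 10.2% and 16.1%). In V2 23 were higher and 37 lower (all genes 15.2% and 16.0%), and in V5-6 16 were higher and 20 lower (all genes 6.47% and 10.0%). The medians lay between -0.04 and 0.04. On library totals, with medians of all genes of 0.27 in V4 and 0.15 in V5-6, 63 were higher in V4 (all genes 29.2%). On that scale 34 were higher and 11 lower in V5-6 (all genes 14.7% and 5.64%).

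A gene that was low in every line was g5568. At R24 its V4 libraries had 1.51, 2.02 and 3.30 CPM and its V5-6 libraries 3.97, 3.37 and 3.22 CPM, and V1, V2 and V3 had at most 1.16 CPM, against 41.5, 38.5 and 40.1 CPM in WT. The log2 difference from WT ran from -6.24 in V3 (SE 0.45) to -3.66 in V5-6 (SE 0.36), with edgeR adjusted p of 2.8e-13 or less. The same gap stood in the other treatments: after heat shock no line library was above 4.84 CPM, while KO had 46.8, 55.3 and 45.4 CPM and WT had 19.3, 13.9 and 23.3 CPM. At T48 no line library was above 9.28 CPM, while KO had 24.2, 38.1 and 37.1 CPM and WT had 34.3, 44.8 and 37.5 CPM. The KO and WT libraries of these treatments served the choice, so the levels are given with no test.

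The genes furthest above WT at R24 were g3018, g16280 and g3614. In V3 g3018 had 84.8, 104 and 106 CPM, against 12.4, 15.3 and 14.7 CPM in WT, a log2 difference of 2.76 (SE 0.18, edgeR adjusted p 8.7e-22). It was also higher in V2 (2.33), V5-6 (1.49) and V1 (1.13), and in V4, at 18.1, 15.3 and 15.9 CPM, just above WT on library totals, it did not pass the threshold (log2 -0.07 with TMM, SE 0.19, edgeR adjusted p 0.84). In V1 g16280 had 185, 169 and 181 CPM, against 65.4, 70.7 and 66.4 CPM in WT (log2 1.32, SE 0.10, edgeR adjusted p 6.5e-18). In V4 g3614 had 42.4, 26.5 and 38.7 CPM, against 14.5, 13.4 and 8.82 CPM in WT (log2 1.26, SE 0.19, edgeR adjusted p 1.2e-07). Its KO over WT ratio at HS6h was 3.12.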

How the data were processed

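The authors deposited raw counts per transcript model for 72 libraries, in whole numbers. The tools named in the submitters' processing notes are HISAT2 2.2.1, HTSeq 2.0.9, Trimmomatic 0.39 and FastQC 0.11.9. The genome build, annotation and strand setting are not given in the sources used here, so the reads of genes that overlap, antisense ones included, may be mixed. The 5 special rows were left out, and reads on no annotated gene were 38.3% to 46.5% of those on genes and on none. Each gene was measured by its transcript with the highest total, 1 of 65235 transcripts. Gene counts per library ran from 3043636 to 8808472.

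The 162 genes, the comparison lists, the contrasts and the alternatives were chosen with earlier results of these data known. Tests used edgeR 4.0.16 with limma 3.58.1 in R 4.3.3 on the 60 libraries that the choice of genes did not use. These are the 7 lines at T48 and HS6h, and 5 lines and WT at R24. After filterByExpr and TMM scaling, p-values of the quasi-likelihood test were adjusted by Benjamini-Hochberg over 9180 genes. An SE is the size of the log2 change over the square root of F. The labels give no batch, so no covariate was used. The script was tested on simulated data. CPM in the text are on library totals, and medians of levels use log2(mean CPM + 0.5), which understates changes of low genes. The floor of 3 counts covers counting error only.

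Named genes were the 4 with the highest level in KO at HS6h, the 4 with the largest KO over WT ratio, the pairs nearest the threshold on either side, and the 2 called higher and the 2 called lower with heat in most lines. For each contrast between lines and each R24 contrast, the gene with the largest change in each direction was named, among those past the threshold with no overlap of libraries and a group mean of at least 5 CPM. The contrasts at T48, the differences of heat responses, R24 against T48 and the alternative on library totals were added after seeing the data. Named genes and neighbours are also given in comparisons other than the one that named them, chosen after their values were seen. None of the IDs matched the reference table of 17863 loci, and no sequence or annotation of these gene models was used here.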

Additional observations from a re-analysis of the deposited data

Results flagged for a closer look

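The heat response, HS6h over T48, was tested for a difference between lines, and each comparison below called some of the 162 genes by that test of the difference itself (edgeR's quasi-likelihood test, Benjamini-Hochberg adjusted p under 0.05). In V4 against V1, V2 and V3 47 genes had a lower response and 5 a higher one (all genes 11.4% and 9.49%). In V5-6 against the same lines 10 were lower (6.17%) and 16 higher (9.88%), near the shares of all genes (7.14% and 6.98%). In the Drosophila lines against the same lines 71 were lower and 17 higher (all genes 21.3% and 19.1%). In Dmb against Dma 14 were lower and 2 higher (all genes 4.46% and 2.07%). On library totals with no scaling factor the counts were 30 lower and 9 higher in V4, 4 and 26 in V5-6, 41 and 40 in the Drosophila lines, and 4 and 9 in Dmb against Dma. In the counts alone the leaning was smaller in V4, gone in the Drosophila lines and turned in Dmb against Dma. On that scale 6.37% of all genes were lower and 17.4% higher in V4, and 3.86% and 13.6% in V5-6. The shares of all genes were 10.8% and 38.3% in the Drosophila lines and 2.30% and 5.61% in Dmb against Dma. Read against these shares, the 162 genes were still more often lower in V4 and the Drosophila lines, and near all genes in Dmb against Dma. The first 3 comparisons share the libraries of V1, V2 and V3.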

How the results depend on the processing

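No paired analysis was possible because the libraries are numbered in a single run over the whole series and groups share no replicate numbers. Of 956 alternative values of 73 results on all the genes, 887 kept within the limits set. Of 548 alternative values for named genes, 543 kept their direction and side of the threshold, 5 lost significance (g5366 in Dma and g13707 in V1) and 0 reversed. The cause was not tested for any change below.

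The number of genes that meet the rule was 87 with CPM on TMM-adjusted totals, 81 of them among the 162, and 68 with the sum over transcripts, 48 of them shared. It ran from 145 to 186 when a library was left out, with 132 to 154 shared. The lowest count came without HS6h_KO replicate 2 and the highest without HS6h_KO replicate 3.

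Medians over KO with TMM were -0.60 in V1, -0.50 in V2, -0.84 in V3, -0.90 in V4 and -1.18 in Dmb, and with a pseudocount of 1 CPM -0.89 in V3 and -1.24 in Dmb. Medians over WT with TMM were -0.00124 in V4, a reversal, 0.23 in V5-6 and -0.25 in Dmb. Leaving out a library gave medians of 0.39 to 0.41 for V2 over WT, 0.13 to 0.21 for V4 over WT, -1.27 to -1.23 for Dmb over KO and -0.25 to -0.22 for Dmb over WT.

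The alternative on library totals, chosen after seeing the data, moved the most counts. What all genes showed on that scale is given with these counts above. For heat it gave 26 higher and 90 lower in V1, 24 higher in V3, 25 in V4, 12 in Dma and 16 in Dmb. Between lines at HS6h it gave 25 higher and 45 lower for V4 and 43 higher and 8 lower for V5-6, and at T48 20 higher and 101 lower for the Drosophila lines. For the difference of heat responses it gave 9 higher and 30 lower for V4, 26 and 4 for V5-6, 40 and 41 for the Drosophila lines, and 9 and 4 for Dmb against Dma. At R24 it gave 63 higher in V4, 34 higher and 11 lower in V5-6, and 18 lower for V4 against T48. Summing transcripts gave 12 lower in V5-6 at R24 and 3 higher for the difference in V4. DESeq2 gave 6 higher for the difference of Dmb and Dma.

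Leaving out a library gave 8 to 16 lower for V5-6 at HS6h, 8 to 13 higher and 28 to 38 lower for Dmb against Dma, and for the differences of heat responses 2 to 5 higher for V4, and 1 to 4 higher and 6 to 18 lower for Dmb against Dma, with 6 without T48_Dmb replicate 2. Genes of low count limit what can be seen: g5366, g13386 and g5568 rest on few reads per library.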

Other observations

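In V4 and in the Drosophila lines, the difference from V1, V2 and V3 after heat shock was negative in the median in each class of WT response to heat. In V4 against V1, V2 and V3 after heat shock, 39 of the 93 WT-lower genes, 27 of the 60 WT-flat genes and 4 of the 9 WT-higher genes were lower, and 2, 6 and 3 were higher. Of all genes tested, 19.0% were lower and 18.6% higher in this comparison. In the Drosophila lines against the same lines, the median log2 difference was -0.34 for the WT-lower genes, -0.65 for the WT-flat genes and -0.64 for the WT-higher genes. In the difference of heat responses of the Drosophila lines, 16 WT-lower genes were higher and 32 lower, while of the WT-flat genes 1 was higher and 33 were lower.

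The neighbouring IDs g9019 and g9020 both fell with heat in V1, by 1.84 (SE 0.09) and a like amount on the log2 scale in edgeR's test. In V1 g9019 had 103, 90.6 and 84.9 CPM at HS6h, against 502, 525 and 493 CPM at T48, and g9020 had 71.8, 76.7 and 62.2 CPM, against 346, 406 and 369 CPM. In KO g9019 had 166, 173 and 153 CPM at HS6h, against 364, 438 and 387 CPM at T48.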
